A study of Mus musculus with 2 samples.

Results

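The ADAMTS proteases are metalloproteases with a disintegrin-like domain and thrombospondin repeats, and 9 of their genes were examined here: Adamts1, Adamts2, Adamts4, Adamts5, Adamts9, Adamts10, Adamts15, Adamts18 and Adamts20. They were taken by gene symbol from the 15239 genes of the deposited table, and the choice was made knowing that several of them lay far apart between the libraries. For that reason every difference between the libraries given below is a description, with no test. Messenger RNA had been sequenced from normal mouse mammary gland basal cells carrying a scrambled short hairpin RNA (the Scramble control library) or a hairpin against Cdk14, a membrane-associated cyclin-dependent kinase (the Cdk14-sh library). With 1 library in each group there is no replicate to set a difference against, and no p-value is given. The labels do not give strain, age, the number of animals or whether the cells were cultured. They also disagree on the material, since the design text names the human line MDA-MB-231 and the extraction text names retina, while the gene identifiers are those of mouse. Cdk14 was at 2.06 FPKM in Scramble control and 0.713 in Cdk14-sh, 2.90-fold lower (2.18 to 3.85), the interval covering counting error alone.

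ADAMTS enzymes are secreted zinc proteases that cut the extracellular matrix. Furin-like convertases remove an inhibitory propeptide, and the thrombospondin repeats and the ancillary domains behind them hold each enzyme near its substrate. Some members cleave the large chondroitin sulfate proteoglycans aggrecan and versican, others trim the amino ends of fibrillar procollagens, and a further set acts on fibrillin microfibrils or fibronectin. In the mammary gland, matrix turnover around the ducts accompanies branching, pregnancy and involution, and basal cells rest directly on the basement membrane.

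The members share a catalytic core, in which 3 histidines hold the zinc ion. The coding bases of that core are shown for all 9 members because the residue between the histidines separates the genes into groups that are used below. Each line is 36 bases (12 codons) of the GENCODE M21 transcript with the longest coding sequence, 5′ to 3′, and the capitals mark the 3 histidine codons.
Adamts4: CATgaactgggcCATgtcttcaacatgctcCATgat
Adamts1: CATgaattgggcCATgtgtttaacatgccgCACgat
Adamts15: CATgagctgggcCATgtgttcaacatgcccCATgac
Adamts9: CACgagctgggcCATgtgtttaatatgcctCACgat
Adamts20: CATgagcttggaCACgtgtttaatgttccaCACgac
Adamts5: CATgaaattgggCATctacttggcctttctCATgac
Adamts2: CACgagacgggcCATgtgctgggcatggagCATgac
Adamts10: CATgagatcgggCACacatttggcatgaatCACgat
Adamts18: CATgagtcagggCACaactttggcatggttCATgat
The eighth codon encodes asparagine in Adamts1, Adamts4, Adamts9, Adamts15 and Adamts20, and glycine in Adamts2, Adamts5, Adamts10 and Adamts18. Among all 14 ADAMTS genes of the table, pairs differed at 3 to 18 of the 36 bases, and Adamts16 and Adamts18 were the closest pair. The core of Adamts4 differed from that of Adamts15 at 4 bases and from that of Adamts1 at 6 bases.

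Values are FPKM, fragments scaled to gene length and to the library total, so levels of different genes can be compared. Reads were recovered from them with annotated exonic lengths and inferred library totals of 10186924 reads in Scramble control and 10177185 in Cdk14-sh. Each total rests on an assumed read number for the smallest recurring product of value and length, and is not a sum of recovered reads. Intervals in parentheses are exact 95% intervals for counting error alone, with 2 reads taken as 1 fragment. The log2 ratio compares the values after 1 FPKM is added to each, Cdk14-sh over Scramble control, so that differences of low genes come out smaller, and folds are plain ratios of FPKM. A gene averaging 1 FPKM or more over the libraries is called measured. Every count of genes past 2-fold uses the log2 ratio with the added 1 FPKM, so a low gene can have a plain fold above 2 and not be counted. All 17 basal markers examined were listed, with Krt5 at 129 FPKM in Scramble control and 242 in Cdk14-sh and Krt14 at 1199 and 994. Of 9 retina genes, 2 were listed, with a summed level of 3.47 FPKM in Scramble control and 1.78 in Cdk14-sh.

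Transcripts of the 9 genes summed to 295 FPKM in Scramble control and 84.7 FPKM in Cdk14-sh, 3.48-fold lower. Adamts4 and Adamts1 together made up 91.6% of the sum in Scramble control and 73.0% in Cdk14-sh, and accounted for 208 FPKM of the difference of 210 FPKM. The other 7 genes summed to 24.7 FPKM and 22.9 FPKM, so nearly all of the difference in the family's summed level lay in its most abundant members.

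**Figure D1:**
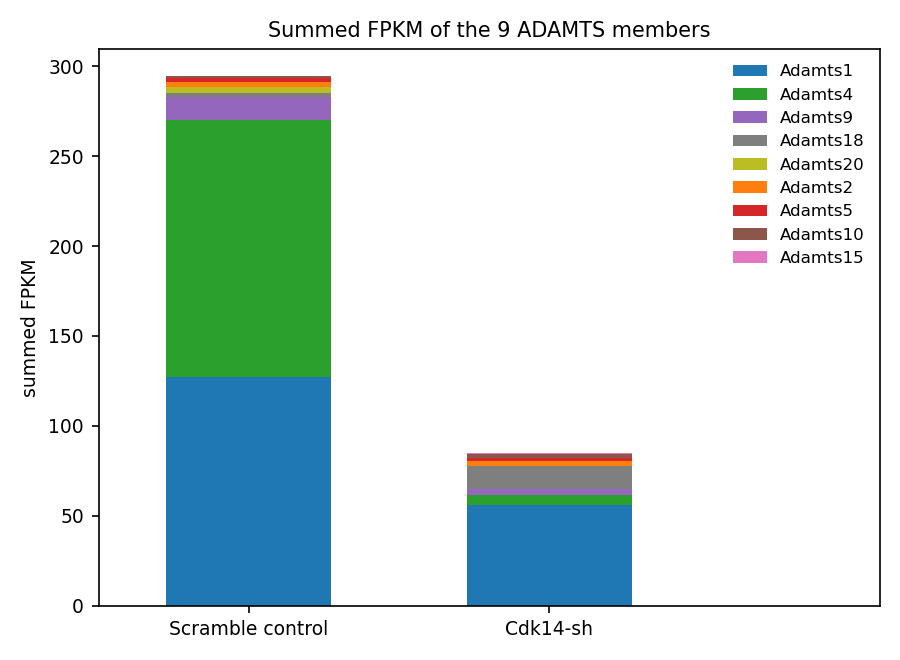
Stacked bars give the summed FPKM of the 9 ADAMTS genes in each library (y axis, FPKM, from 0), with 1 colour per gene. Adamts1 and Adamts4 fill most of the Scramble control bar of 295 FPKM, while the Cdk14-sh bar of 84.7 FPKM is mostly Adamts1 with Adamts18 next.

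Adamts4 was the most abundant member in Scramble control and had the log2 ratio furthest from 0, while the plain fold of Adamts20 was larger on far fewer reads. It encodes aggrecanase-1, which cleaves aggrecan and versican and is induced by inflammatory cytokines in cartilage. It stood at 143 FPKM (138 to 148) in Scramble control and 5.98 FPKM (5.04 to 7.01) in Cdk14-sh, from 7001 and 292.5 reads. The Cdk14-sh library was thus lower by 23.9-fold (20.3 to 28.5), a log2 ratio of -4.37, and of the 12830 measured genes 6, Adamts4 included, had a ratio that low or lower. By level it ranked 421st of all listed genes in Scramble control and 7218th in Cdk14-sh. The gene lies on the plus strand of chromosome 1 from 171250421 to 171260637 (GRCm38), and 3.56% of its 4810 exonic bases overlap antisense annotation.

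Adamts1 encodes a versican- and aggrecan-cleaving protease that also binds VEGF and restrains angiogenesis. It was at 127 FPKM (123 to 132) in Scramble control and 55.8 FPKM (53.1 to 58.7) in Cdk14-sh, from 6875 and 3013 reads. The Cdk14-sh library was 2.28-fold lower (2.14 to 2.42). Adamts4 and Adamts1 were therefore close in Scramble control, where Adamts4 was 1.12 times the level of Adamts1, and far apart in Cdk14-sh, where Adamts1 was 9.34 times the level of Adamts4. Adamts1 lies on the minus strand of chromosome 16 (85793827 to 85803113), and Adamts5 is the next listed gene, 53060 bases away on the same strand.

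Adamts5 encodes aggrecanase-2, the main aggrecan-degrading enzyme of mouse cartilage. It was at 2.26 FPKM (1.88 to 2.69) in Scramble control and 1.38 (1.09 to 1.73) in Cdk14-sh, 1.63-fold lower (1.22 to 2.20). The neighbours on chromosome 16 thus differed in level far more than in their difference between libraries: Adamts1 stood 56.4-fold above Adamts5 in Scramble control and 40.3-fold above it in Cdk14-sh. The reads of Adamts5 did not come out as multiples of the smallest step with the annotated length, so its interval is approximate.

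Adamts9 and Adamts20 are the long members with a carboxy-terminal GON domain. Both cleave versican, and loss of Adamts20 gives the white-belted coat of belted mice through loss of melanoblasts. Adamts9 was at 12.8 FPKM (12 to 13.6) in Scramble control and 3.09 FPKM (2.71 to 3.52) in Cdk14-sh, 4.13-fold lower (3.58 to 4.78). Antisense annotation overlaps 12% of its exonic bases, and the sources used here do not say if reads were assigned by strand, so reads of the antisense genes cannot be told apart from its own. Adamts20 was at 3.71 FPKM (3.17 to 4.31) and 0.0655 FPKM (0.0135 to 0.192), from 340 reads against 6, a fold of 56.6 with a wide interval (19.0 to 277). It held the 4th place among the 9 members in Scramble control and the 9th in Cdk14-sh. The level of Adamts9 over Adamts20 went from 3.44-fold to 47.1-fold.

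Adamts15, a versicanase that sits beside Adamts8 on chromosome 9, was low in each library. It was at 0.246 FPKM (0.131 to 0.421) in Scramble control and 0.436 (0.276 to 0.654) in Cdk14-sh, from 26 and 46 reads, and the interval of its fold reached from 0.860 to 3.81. It was the only one of the 9 below the mean of 1 FPKM. Its neighbour Adamts8, 20110 bases away on the opposite strand and known for blocking angiogenesis, was at 3.06 FPKM in Scramble control and 0.884 in Cdk14-sh, 3.47-fold lower (2.08 to 5.87), with 10.6% of its exonic bases overlapping antisense annotation.

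Adamts18 went the other way. In the mouse mammary gland it is known as a myoepithelial protease induced downstream of progesterone and Wnt4, and it acts on fibronectin in the basement membrane. It was at 2.16 FPKM (1.78 to 2.60) in Scramble control and 12.7 FPKM (11.7 to 13.7) in Cdk14-sh, from 224 and 1312 reads. That is 5.86-fold higher in Cdk14-sh (4.79 to 7.23), a log2 ratio of 2.11, with 347 of the 12830 measured genes as high or higher. It held the 7th place among the members in Scramble control and the 2nd in Cdk14-sh. The gene lies on the minus strand of chromosome 8 (113697126 to 113848738) and shares no exonic bases with other genes. Fibronectin (Fn1) was also higher in Cdk14-sh, at 6.23 FPKM against 0.731, 8.53-fold (6.16 to 11.8). Adamts16, the gene closest to Adamts18 in coding sequence (65.6% identity), was listed at 0.0287 FPKM in each library, from 2 reads each.

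Adamts2 trims the amino-terminal propeptides of fibrillar procollagens, and its loss causes fragile skin. It was at 2.74 FPKM (2.30 to 3.27) in Scramble control and 2.89 (2.44 to 3.43) in Cdk14-sh, and the interval of its fold (0.824 to 1.35) included no difference and left out a 2-fold difference either way. Adamts3, its closest relative in coding sequence (67.7% identity) and a procollagen protease also known for activating VEGF-C, was at 3.43 FPKM and 0.832 FPKM, 4.13-fold lower in Cdk14-sh (2.59 to 6.82). Adamts2 was thus at 0.799 times the level of Adamts3 in Scramble control and 3.48 times in Cdk14-sh.

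Adamts10 binds fibrillin-1 and supports microfibril assembly. It was at 0.774 FPKM (0.540 to 1.10) in Scramble control and 2.34 FPKM (1.89 to 2.84) in Cdk14-sh, 3.03-fold higher (1.99 to 4.55). With the added 1 FPKM its log2 ratio was 0.91, below the 2-fold limit, and its reads (about 65.09 and 196.8) are approximate because its annotated length does not give whole steps. Adamts17, another microfibril-associated member, was at 1.31 FPKM and 0.949, and the interval of its fold (0.468 to 1.13) included no difference. Adamts6, Adamts12, Adamts13, Adamts14 and Adamts19 were not analysed here. Adamts7, which cleaves the cartilage protein COMP and thrombospondin-1, was at 2.06 FPKM and 3.24, 1.57-fold higher in Cdk14-sh (1.15 to 2.18).

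**Figure D2:**
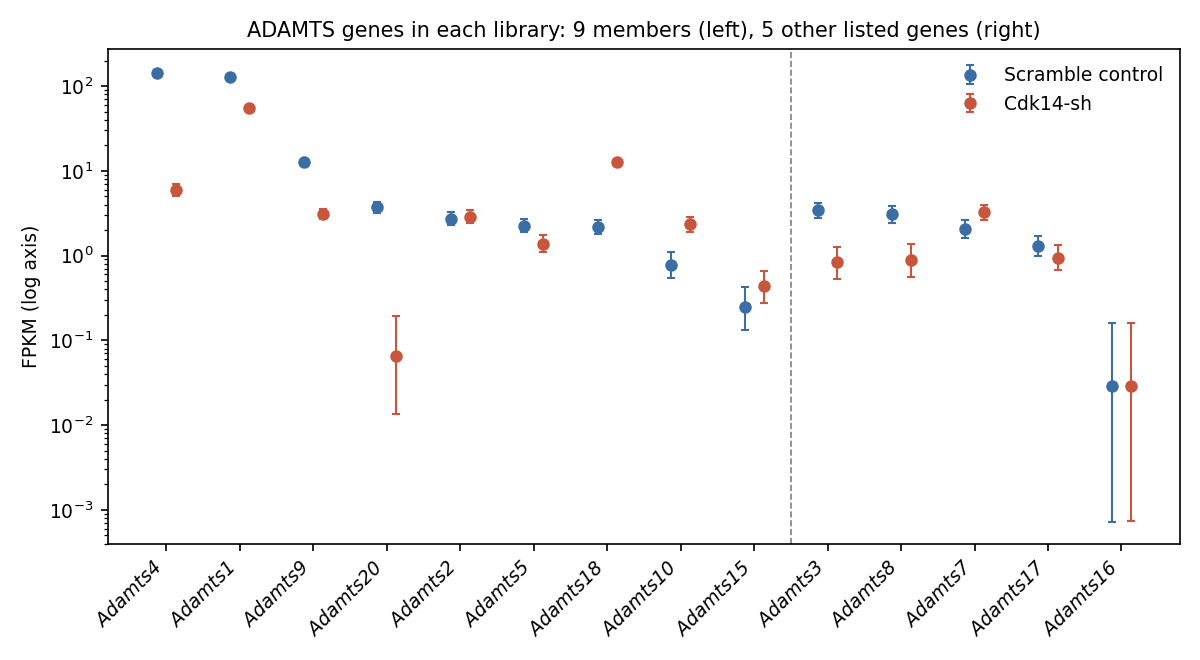
Points give FPKM (log axis) of each ADAMTS gene in Scramble control and Cdk14-sh, and bars give exact 95% counting intervals; each point is 1 library. Adamts4, Adamts1, Adamts9 and Adamts20 sit lower in Cdk14-sh and Adamts18 and Adamts10 higher, while the intervals of Adamts2 and Adamts15 overlap between libraries.

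On the log2 scale 4 of the 9 genes were 2-fold or more lower in Cdk14-sh (Adamts1, Adamts4, Adamts9 and Adamts20) and 1, Adamts18, was higher by that much. Of all 12830 measured genes, 27.8% were past 2-fold, 13.5% in the lower and 14.2% in the higher direction. The genes were picked on this contrast, so nothing is read from the count. With a limit of 1.5-fold 6 members were past it, against 49.7% of measured genes (24.5% lower, 25.2% higher). With a limit of 4-fold 3 members were past it, against 5.95% (2.69% lower, 3.27% higher). Past 2-fold there were 5 members with no filter on level, against 24.8% of all genes (11.7% lower, 13.1% higher), and 4 with a mean of 5 FPKM or more, against 23.0% (11.3% lower, 11.7% higher). Adamts10 and Adamts20 are measured only through the library in which they are higher. The median log2 ratio of all 9, the unmeasured Adamts15 included, was -0.45, and it ran from -0.67 with 0.1 FPKM added to -0.18 with 5 FPKM added. Over the 8 measured members alone the median was -0.81, and over all measured genes it was 0.02. In order of level, Scramble control ran Adamts4, Adamts1, Adamts9, Adamts20, Adamts2, Adamts5, Adamts18, Adamts10 and Adamts15. The intervals of neighbours overlapped between Adamts20 and Adamts2, Adamts2 and Adamts5, and Adamts5 and Adamts18. Cdk14-sh ran Adamts1, Adamts18, Adamts4, Adamts9, Adamts2, Adamts10, Adamts5, Adamts15 and Adamts20, with overlaps between Adamts9 and Adamts2 and between Adamts2 and Adamts10.

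**Figure D3:**
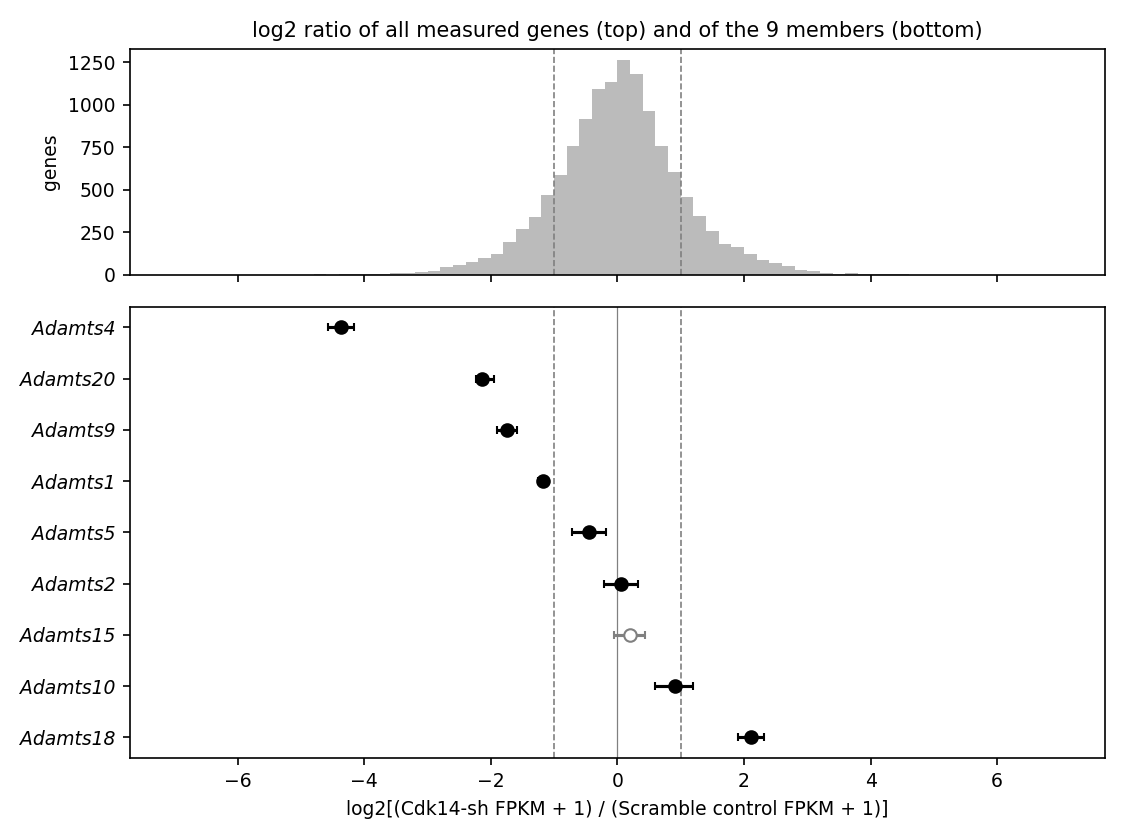
The top panel is a histogram of log2 ratios over the 12830 measured genes, and the bottom panel gives the ratio of each of the 9 members with its 95% counting interval; dashed lines mark 2-fold, and the open point is below a mean of 1 FPKM. Adamts4, at -4.37, lies in the far lower tail, and Adamts18, at 2.11, in the upper tail.

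The split by catalytic core, looked at after the values were seen and not tested, can be read from the sequences above. All 5 genes with an asparagine codon are members picked on this contrast. Of these, 4 were past 2-fold lower in Cdk14-sh (13.5% of all measured genes were), Adamts20 being measured only through Scramble control, and the remaining gene, Adamts15, was not measured. Nothing is read from this count. Their summed level was 287 FPKM in Scramble control and 65.4 in Cdk14-sh. Of the 8 listed genes with a glycine codon, including the non-members Adamts3, Adamts7, Adamts16 and Adamts17, 1 was past 2-fold in the lower direction (Adamts3) and 1 in the higher (Adamts18). Their summed level was 14.8 FPKM and 24.3 FPKM. Adamts8, the 1 listed gene with a serine codon, was past 2-fold lower as well, at a log2 ratio of -1.11, so lower genes were found with each of the 3 residues. Adamts3 and Adamts8, like Adamts20, were measured only through Scramble control. With 5 FPKM added, 0 of the 4 measured non-members were past 2-fold. Over the whole coding sequence, identity between pairs of the 14 genes ran from 58.1% to 67.7% with a median of 60.7%. Pairs among Adamts1, Adamts4, Adamts8 and Adamts15 shared 62.6% to 63.7%, with the upper value in the pairs of Adamts15 with Adamts1 and with Adamts4, and Adamts9 and Adamts20 shared 63.2%. Of these 6 genes Adamts1, Adamts4, Adamts8, Adamts9 and Adamts20 were lower in Cdk14-sh, and the fold interval of Adamts15 included no difference. Adamts7 shared as much with Adamts1 (63.2%) and was 1.57-fold higher in Cdk14-sh (1.15 to 2.18).

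**Figure D4:**
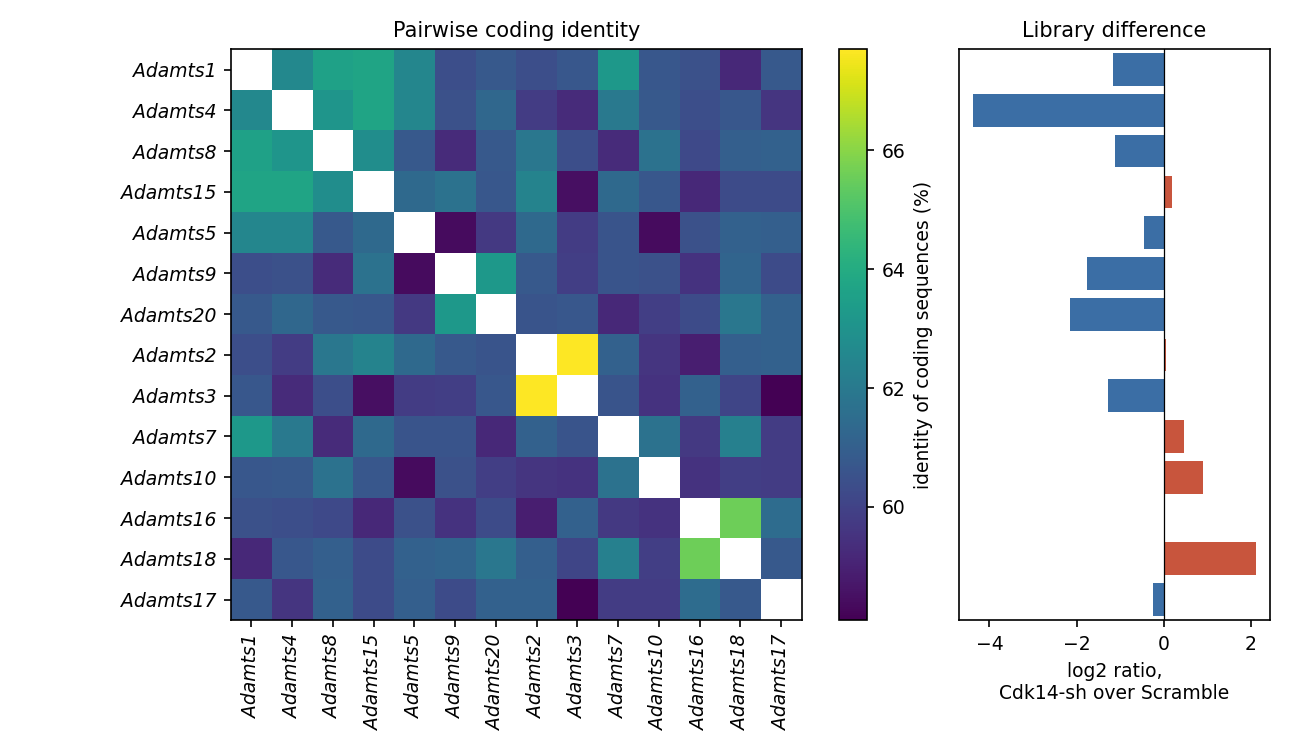
The heat map gives the percent identity of aligned coding bases for each pair of the 14 listed ADAMTS genes, and the bars give the log2 ratio of Cdk14-sh over Scramble control for the gene of each row. The brightest pairs are Adamts2 with Adamts3 (67.7%) and Adamts16 with Adamts18 (65.6%), and the longest bar is that of Adamts4.

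Of the 9 members, 5 had a promoter in the RefSeq table (GRCm38.p6), which holds 250 bases before and 50 after a gene's start: Adamts1, Adamts2, Adamts9, Adamts18 and Adamts20. The promoters of Adamts1 and Adamts18 are shown because these genes had the highest levels in Cdk14-sh and differed from Scramble control in opposite directions. Capitals mark matches to the searched motifs, which were a TATA box (TATAAA, plus strand), a CCAAT box (CCAAT), an AP-1 site (TGANTCA), a GC box (GGGCGG) and an E-box (CACGTG), the last 4 on both strands.
Adamts1, chr16:85803064-85803363, minus strand: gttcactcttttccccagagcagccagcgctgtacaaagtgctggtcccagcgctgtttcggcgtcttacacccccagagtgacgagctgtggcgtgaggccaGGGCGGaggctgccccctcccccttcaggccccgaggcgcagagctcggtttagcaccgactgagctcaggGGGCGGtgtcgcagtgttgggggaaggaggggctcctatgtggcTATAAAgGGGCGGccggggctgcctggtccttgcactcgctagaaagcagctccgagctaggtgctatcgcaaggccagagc
Adamts18, chr8:113848790-113849089, minus strand: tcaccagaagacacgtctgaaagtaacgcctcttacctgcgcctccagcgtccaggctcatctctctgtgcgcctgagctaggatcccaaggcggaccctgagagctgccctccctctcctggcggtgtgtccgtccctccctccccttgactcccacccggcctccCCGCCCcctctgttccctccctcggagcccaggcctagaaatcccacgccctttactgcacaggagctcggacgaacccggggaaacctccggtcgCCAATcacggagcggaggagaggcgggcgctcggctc
The Adamts1 window held a TATA box whose first base lies 32 bases before the start site, which 8.28% of the 32544 promoter windows have anywhere on the plus strand, and 3 GC boxes, of which 35.9% of windows hold at least 1. The windows of the other 4 members held no TATA box. The Adamts18 window held a CCAAT box downstream of the RefSeq start site (37.4% of windows hold 1 anywhere) and a GC box. This whole window lies upstream of the 5′ end of the GENCODE gene, at 113848738. The CCAAT box is therefore upstream of that annotated start. None of the 5 windows matched the AP-1 site (7.79% of windows) or the E-box (7.17%). GC content was 64.7% for Adamts1, 66.0% for Adamts18, 70.0% for Adamts9 and 77.3% for Adamts2 and Adamts20, against a median of 53.0% over all windows. The Adamts20 window (chromosome 15, 94404301 to 94404600, minus strand) lies inside the GENCODE gene, which runs from 94270163 to 94465418. It is therefore not at the 5′ end of the annotation whose length was used for reads.

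Related secreted proteins without a protease domain had higher values in Cdk14-sh for each of the 5 listed genes, and the interval of 1 of them included no difference. Only Papln and Adamtsl3 were measured, Papln through its Cdk14-sh value alone, and of these Papln was past 2-fold, as were 27.8% of all measured genes. Adamtsl1, Adamtsl2 and Adamtsl4 averaged below 1 FPKM. Papilin (Papln), a basement membrane protein with thrombospondin repeats, was at 0.453 FPKM in Scramble control and 4.25 in Cdk14-sh, 9.39-fold higher (5.29 to 18.1). Adamtsl2, which binds fibrillin and latent TGF-beta binding protein, was at 0.0737 and 1.30 FPKM, 17.7-fold higher (5.73 to 88.5) from 6 and 106 reads. Adamtsl3 was 1.77-fold higher (1.45 to 2.16), Adamtsl1 1.60-fold higher (1.09 to 2.35), and the fold of Adamtsl4 had an interval from 0.536 to 9.08. The 5 genes summed to 5.47 FPKM and 14.3 FPKM, while the proteases summed the other way.

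The proteins on which these enzymes act went in both directions. Of 8 measured genes among proteoglycan substrates and hyaluronan partners, 1 was past 2-fold on the log2 scale, decorin (Dcn), at 104 FPKM in Scramble control and 41.2 in Cdk14-sh, and the list's median log2 ratio was -0.25. With 0.1 FPKM added in place of 1, the count was 3. Of all measured genes 27.8% were past 2-fold with 1 FPKM added. Versican (Vcan), the substrate shared by Adamts1, Adamts4, Adamts5, Adamts9, Adamts15 and Adamts20, was at 1.57 FPKM in Scramble control and 3.93 in Cdk14-sh, 2.49-fold higher (2.0 to 3.12). Biglycan (Bgn) was at 14.3 and 19.0 FPKM. The hyaluronan synthase Has2 was at 3.37 and 1.53 FPKM, 2.20-fold lower (1.45 to 3.44), and the hyaluronan receptor Cd44 at 63.7 and 73.6 FPKM. Aggrecan (Acan) was not analysed here.

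Procollagens of types I and III, the substrates of Adamts2 and Adamts3, stood higher in Cdk14-sh and type V chains lower. Of 7 measured genes, 2 were past 2-fold in the higher direction on the log2 scale and 1, Col5a2, in the lower. The shares of all measured genes were 14.2% and 13.5%. Col3a1 was 7.44-fold higher (5.65 to 9.93), at 8.77 FPKM against 1.18, Col1a2 was 2.71-fold higher (2.30 to 3.19) and Col1a1 1.99-fold higher (1.60 to 2.47). The type V chain Col5a2 was 2.98-fold lower (2.52 to 3.54), at 3.79 FPKM against 11.3, and Col5a1 was 2.55-fold lower (1.86 to 3.45) with a log2 ratio of -0.93. Bmp1, the protease that trims the carboxy end, was at 22.1 FPKM in Scramble control and 12.4 in Cdk14-sh.

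Among 13 measured glycoprotein and microfibril substrates, 4 were past 2-fold higher on the log2 scale and 2 past 2-fold lower, where 14.2% and 13.5% of all measured genes were. Of the 4 higher genes, Fn1, Thbs2 and Nid1 were measured only through Cdk14-sh, and of the 2 lower genes, Tnc only through Scramble control. Nidogen-1 (Nid1), a basement membrane linker, was 13.7-fold higher (9.69 to 19.9), fibulin-2 (Fbln2) 6.42-fold higher (5.67 to 7.29) and thrombospondin-2 (Thbs2) was at 3.68 FPKM against 0.0332, from 262.5 reads against about 2.365, a ratio of 111 (23.1 to 5218). Tenascin-C (Tnc) was 5.80-fold lower (4.12 to 8.47), periostin (Postn) 2.71-fold lower (2.56 to 2.88), and reelin (Reln) 2.28-fold lower (1.95 to 2.69) with a log2 ratio of -0.87. Fibrillin-1 (Fbn1), to which Adamts10 binds, was at 4.61 and 5.88 FPKM, 1.27-fold higher (1.09 to 1.49).

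Among inhibitors and cofactors, Timp1 and Timp2 were lower in Cdk14-sh and Timp3 differed far less. Timp3, the main endogenous inhibitor of Adamts4 and Adamts5, was at 120 FPKM in Scramble control and 100 in Cdk14-sh, 1.19-fold lower (1.14 to 1.24). Timp1 was 8.69-fold lower (5.46 to 14.6), at 4.43 FPKM against 38.5, and Timp2 3.95-fold lower (3.52 to 4.44), at 18.7 against 73.9. Fibulin-1 (Fbln1), a cofactor of Adamts1 on aggrecan, was 6.86-fold higher (4.74 to 10.2). The clearance receptor Lrp1 was at 6.0 and 5.73 FPKM, and syndecan-4 (Sdc4), which takes part in Adamts5 activation, at 1418 and 757 FPKM. Of the 7 measured genes in this list, 2 were past 2-fold lower and 1 past 2-fold higher, against 13.5% and 14.2% of all measured genes.

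Among 7 measured genes for propeptide removal and thrombospondin-repeat glycosylation, 2 were past 2-fold higher and 1 past 2-fold lower. The shares of all measured genes were 14.2% and 13.5%. The convertase Furin was at 12.4 FPKM in Scramble control and 9.60 in Cdk14-sh, Pcsk7 was 2.72-fold lower (1.99 to 3.69) and Pcsk6 (PACE4) stood at 0.813 FPKM in Scramble control and 7.67 in Cdk14-sh, a 9.43-fold difference (5.94 to 15.1). Pcsk6 was measured only through Cdk14-sh. The mannosyltransferase Dpy19l1 was 2.83-fold higher (2.26 to 3.54), and the fucosyltransferase Pofut2, which modifies thrombospondin repeats before secretion, was at 22.1 and 39.7 FPKM.

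The ADAM and matrix metalloproteinase families, which also cut matrix and cell surface proteins, were set beside the members. Of 6 measured ADAM genes 1 was at least 2-fold lower (Adam9, at 57.9 and 21.2 FPKM), and the sheddases Adam10 and Adam17 were at 25.8 and 39.6 FPKM and at 11.8 and 16.4 FPKM. Of 4 measured matrix metalloproteinases 2 were at least 2-fold higher, the gelatinase Mmp2 (63.1 and 163 FPKM) and the macrophage elastase Mmp12 (0.0543 and 2.12 FPKM, a ratio of 39.0 with an interval from 10.5 to 328), and Mmp14 was at 43.8 and 34.4 FPKM. Mmp12 was measured only through Cdk14-sh. For both families, 13.5% of all measured genes were past 2-fold lower and 14.2% higher. Whether these lists differ from the ADAMTS genes was not tested.

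Among regulators known to induce Adamts1 or Adamts4 in connective tissue, 2 of 13 measured genes were past 2-fold lower and none higher. Of all measured genes 13.5% were past 2-fold lower and 14.2% higher, and nothing is read from this count. The log2 ratio was below 0 for 11 of the 13, though the fold intervals of Tgfb2 (0.835 to 1.11) and Nfkb1 (0.906 to 1.09) included no difference, and below 0 for 6229 of all 12830 measured genes. The list's median was -0.40. Past 2-fold were the cytokine gene Il6, 3.27-fold (2.64 to 4.07) at 9.02 FPKM against 29.6, and Fos, 2.09-fold (2.01 to 2.18) at 283 FPKM against 591. The transcription factor gene Sox4 was at 161 and 88.1 FPKM. Jun was at 154 and 242 FPKM and Tnf at 5.15 and 5.40 FPKM. Of the 18 genes in this list 16 were listed, and Il1a and Il1b were not analysed here. The listed but unmeasured genes had higher values in Cdk14-sh: Osm (0.0216 and 1.04 FPKM), Pgr (0.0115 and 0.391) and Tgfb1 (0.0389 and 0.117). The fold interval of Tgfb1 (0.241 to 158) included no difference.

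**Figure D5:**
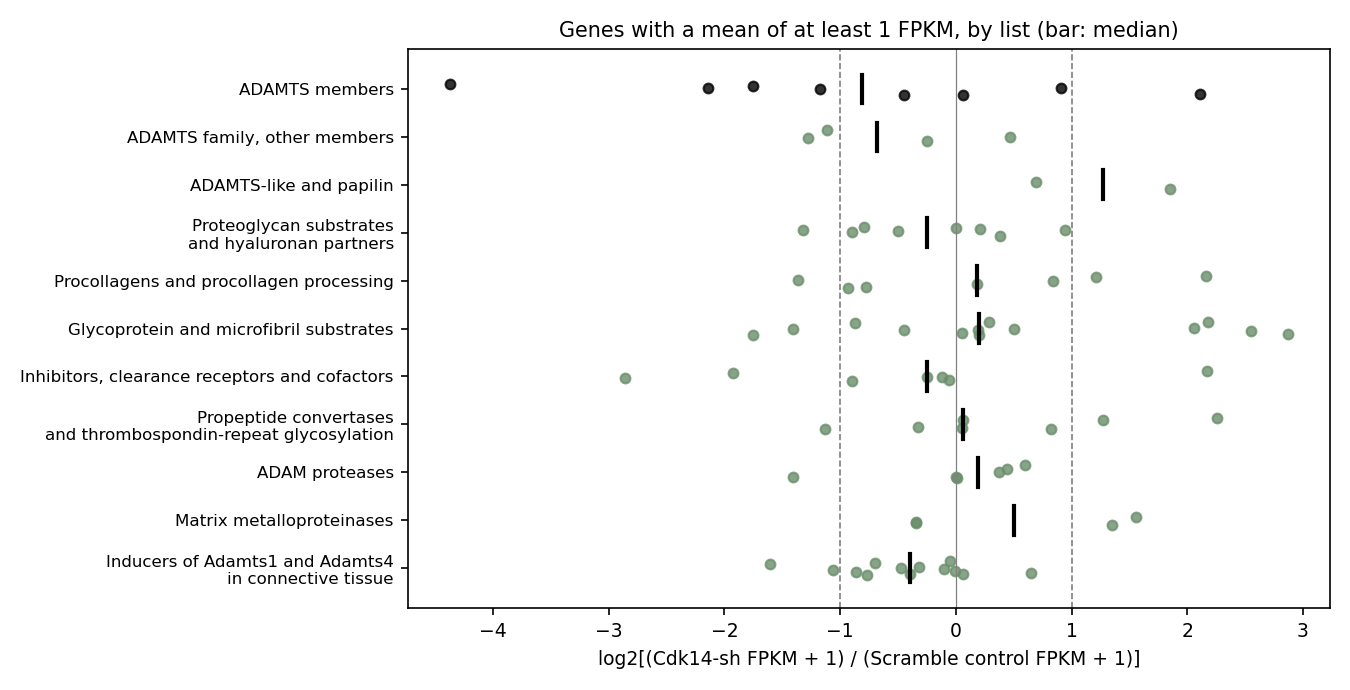
Each point is the log2 ratio of 1 gene with a mean of at least 1 FPKM, by list; vertical bars are medians and dashed lines mark 2-fold. The ADAMTS members reach from -4.37 to 2.11, and the inducer list has a median of -0.40.

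Markers of other cell types in the gland also differed between the libraries. In bulk RNA fewer cells of a type and less RNA per cell cannot be told apart. Of all measured genes 13.5% were past 2-fold lower and 14.2% higher. Of 17 endothelial markers 15 were listed, summing to 282 FPKM in Scramble control and 64.9 in Cdk14-sh, with 10 of 14 measured genes at least 2-fold lower. Among these 10, Gpihbp1, Adgrl4, Emcn, Tek, Tie1 and Robo4 were measured only through Scramble control. Plvap was at 83.0 and 3.56 FPKM and Pecam1 at 16.9 and 1.96 FPKM, while Kdr and Erg were not analysed here. Esam was at 17.4 and 13.7 FPKM, Eng at 9.29 and 8.97 FPKM and Egfl7 at 2.80 and 3.10 FPKM. Of 8 pericyte markers 5 were listed, summing to 127 and 60.0 FPKM, and that sum was mostly Rgs5 (112 and 54.3 FPKM). Of 4 measured pericyte genes 3 were past 2-fold lower (Mcam, Rgs5 and Abcc9) and 1 higher, Des, at 0.0523 and 2.41 FPKM. Abcc9 was measured only through Scramble control and Des only through Cdk14-sh. Notch3, not measured, was at 0.415 FPKM in each library. Of 12 fibroblast markers 8 were listed, summing to 302 and 121 FPKM. That sum was mostly Gsn (185 and 43.8 FPKM) and Dcn, while 4 of 7 measured fibroblast genes were above 0 with a median log2 ratio of 0.84, 3 being past 2-fold higher and 3 lower. Of the 3 lower genes, Thy1 was measured only through Scramble control. The only adipocyte marker listed of 6, Fabp4, was at 94.3 and 8.45 FPKM. Of 16 luminal markers 14 were listed, summing to 1548 and 1085 FPKM, and the median log2 ratio of the 10 measured was -0.18. Of these 10, 2 were past 2-fold lower (Krt18 and Krt8) and 3 higher (Krt19, Wfdc18 and Ly6d). Ly6d was at 3.96 and 125 FPKM. The unmeasured Kit, Pgr, Esr1 and Prlr were each higher in Cdk14-sh as well. Of 12 immune markers 8 were listed, summing to 108 and 388 FPKM. That sum was mostly Cd74 (49.0 and 175 FPKM), H2-Ab1 (23.6 and 125 FPKM) and H2-Aa (5.45 and 50.2 FPKM). Of 6 measured immune genes, 5 had a log2 ratio above 0 and 1, Coro1a (2.61 and 1.06 FPKM), below it. Cd68 was at 25.8 and 32.0 FPKM, and Ptprc, not measured, at 0.482 and 0.247 FPKM. The 17 basal markers summed to 4900 and 3498 FPKM, with 4 past 2-fold lower, the contractile genes Actg2, Cnn1, Tagln and Myh11, and 2 higher, among them Trp63 at 8.42 and 23.9 FPKM. The other higher gene, Lgals7, was measured only through Cdk14-sh. The basal, luminal, endothelial, pericyte and adipocyte lists were lower in Cdk14-sh by sum and by the median of measured genes. That is the direction of Adamts4, Adamts1, Adamts9 and Adamts20. Luminal genes went both ways, with the unmeasured ones all higher, and the pericyte gene Des was higher. The fibroblast list was lower by sum and higher by median. The immune list was higher by both, in the direction of Adamts18, though its genes Ptprc and Coro1a were lower. The part of these cell types in the members' differences was not tested.

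By level in the libraries, the 5 genes nearest to Adamts4 were Actg2, Fabp4, Lrg1, Pbxip1 and Plvap, at distances of 0.749 to 1.08 on the log2 scale over the 2 values. Actg2, the smooth muscle gamma actin of myoepithelial cells, was at 120 and 3.66 FPKM, and Plvap, a diaphragm protein of fenestrated endothelium, at 83.0 and 3.56 FPKM. Lrg1, a secreted leucine-rich glycoprotein, was at 75.9 and 4.95 FPKM, and Pbxip1 at 73.7 and 6.01 FPKM. With 2 libraries this nearness says only that the levels are alike in each.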

How the data were processed

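Messenger RNA of mouse mammary basal cells was measured in 2 libraries, 1 per group, made with a stranded kit per the labels' protocols. The deposited table gives FPKM values computed by the authors. Bowtie 0.12.2, Subread 1.5.1 and featureCounts appear in the submitters' processing notes, as do the builds mm8 and GRCm38, with no role stated. No gene is at 0 in either column, so genes found in 1 library alone are not in the table. Column names were matched to the sample titles they abbreviate.

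Multiplying by GENCODE M21 exonic lengths (GRCm38) gave back reads, taking the smallest product of value and length recurring in at least 20 genes as 0.5 reads. In 79.1% of 15195 genes the reads were multiples of 0.5 in both libraries (tolerance 0.01). Counting intervals are Clopper-Pearson for folds and exact Poisson for levels. Since PCR copies are not marked by molecular identifiers, intervals cover counting error only. Coding sequences were aligned with Biopython 1.88 (match 2, mismatch -1, gap open -5, extend -0.5), and exon overlap was counted with bedtools 2.31.1; scripts were tested on simulated data. The members and the 10 pathway and 8 marker lists were chosen with earlier results of these data known. Named genes are the 9 members, Cdk14, their listed relatives, up to 3 highest and 3 lowest measured genes of each list, the 5 genes nearest to Adamts4 and each member's neighbours. Fn1, Fbn1, Timp3, Tgfb2, Osm, Pgr, Tgfb1 and the cell type markers named were picked with their values in view. The alternatives tried were a pseudocount of 0.1 or 5, 3 scalings, a mean of 5 FPKM or no filter, and limits of 1.5-fold and 4-fold. The comparison of protein sequences was replaced by one of coding sequences.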

Additional observations from a re-analysis of the deposited data

How the results depend on the processing

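The main limit is 1 library per group. A pseudocount added to both values cannot change the sign of a log2 ratio, so the signs say nothing about that choice. The 3 scalings of Cdk14-sh divided its values by 1.02 to 1.05 and moved the median of all genes to between -0.04 and 0. Each member kept its sign under them, but scalings this small could change only a ratio near 0, such as that of Adamts2 (0.06). Low members depended on the pseudocount: Adamts20 ran from -4.52 to -0.78, Adamts10 from 0.35 to 1.48 and Adamts9 from -2.01 to -1.14, while Adamts4 stayed between -4.56 and -3.75. Of the 9 members 5 were past 2-fold; this was 6 with a pseudocount of 0.1 (Adamts10 added) and 4 with a pseudocount of 5 (Adamts20 lost). With a mean of at least 5 FPKM it was 4 of the 4 that passed, at 1.5-fold it was 6 and at 4-fold it was 3. Of 70 measured pathway genes outside the members, 24 were past 2-fold, against 27.8% of all measured genes. With a pseudocount of 5 it was 13. By construction the count also changed to 14 of 48 with a mean of at least 5 FPKM (23.0% of all such genes). For the same reason it was 38 at 1.5-fold (49.7%) and 8 at 4-fold (5.95%). The share of all genes was not taken for the pseudocounts of 0.1 and 5, and nothing is read from these counts. No paired analysis was possible because each group is 1 library.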

Other observations

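The genes listed next to the members on their chromosomes went in both directions, some with their member and some against it. Beside Adamts4 on chromosome 1, Fcer1g, the gamma chain of immune Fc receptors, was at 0.0562 FPKM in Scramble control and 6.97 in Cdk14-sh, 16056 bases away. On the other side, B4galt3, a galactosyltransferase, was at 4.88 and 3.68 FPKM, 9691 bases away. Beside Adamts9, the planar polarity gene Prickle2 was at 8.88 and 16.7 FPKM, 66544 bases away. Beside Adamts18, Mon1b was at 4.14 and 4.18 FPKM and Wwox at 0.261 and 1.76 FPKM. Beside Adamts20, Prickle1 was at 5.49 and 7.91 FPKM and Pus7l at 0.537 and 1.07 FPKM. Beside Adamts2, Rufy1 was at 10.1 and 5.47 FPKM and Zfp354c at 2.49 and 5.30 FPKM. Both neighbours of Adamts10 were higher in Cdk14-sh like Adamts10, though not measured: Zfp101 at 0.0529 and 0.794 FPKM and Myo1f at 0.0400 and 0.900. The adjacent Adamts1 and Adamts5 were both lower, while N6amt1, beyond Adamts5, was at 1.25 and 4.26 FPKM. Snx19, beside Adamts15, was at 2.58 and 3.97 FPKM.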
